A study of Mus musculus with 12 samples.

Results

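The fibrillar collagens counted here are the chains of collagens I, II, III, V, XI and XXVII. Collagen XXIV is also fibrillar, and its gene Col24a1 is described without being counted. The 10 counted genes are Col1a1, Col1a2, Col2a1, Col3a1, Col5a1, Col5a2, Col5a3, Col11a1, Col11a2 and Col27a1. They were followed in side population cells of mouse muscle through every probe set, a group of short probes that reads 1 transcript, that the array's annotation assigns to 1 of these 10 genes and to no other. This gave 20 probe sets of 45037 on the array, which together name 18193 genes. Side population cells are the minor fraction of a dissociated tissue that exports the dye Hoechst. They were taken from the extraocular muscles (EOM), which move the eye, and from the tibialis anterior (TA) of the hind limb. The labels name 6 preparations of EOM and 6 of TA, separated independently, each hybridized to its own Affymetrix whole-genome mouse array after amplification of total RNA. They give no strain, age, sex, genotype or treatment and no number of animals per preparation, and arrays are called by muscle and replicate number (0, 1, 2, 3, 5 and 6). The comparison sets the EOM side population against that of a limb muscle.

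Fibrillar collagens are secreted as procollagens whose chains wind into a helix of 3, lose their end propeptides outside the cell and pack into banded fibrils that carry load. Collagens I and III form the bulk of the fibrils of muscle connective tissue and tendon, where fibroblasts make them. Collagens V and XI are minor partners that start fibrils and limit their width, collagen V beside collagen I and collagen XI mainly beside the collagen II of cartilage.

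Values are MAS5 signals, 1 intensity per probe set and array on a linear scale, scaled by the authors to a common trimmed mean on every array. Signals of different probe sets depend on their probes, so levels were compared between arrays and never between genes. EOM and TA were compared with limma, a linear model with a shared estimate of the spread, on log2(signal + 16), which understates the change of dim probe sets. The dimmest 40% of probe sets were not tested. P-values were adjusted over the 27022 probe sets tested with the Benjamini-Hochberg method, and the threshold was 0.05. Differences are EOM minus TA on this log2 scale with their standard error (SE). The preparations are pools of cells, so that fewer cells of a type and less RNA per cell cannot be told apart.

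On 3 arrays the median signal stood apart, while the trimmed mean was the same on all by scaling. Their medians were 87.2 (EOM 1), 69.5 (TA 3) and 63.1 (TA 5), and between 31.1 and 43.4 on the other 9. Hybridization control probe sets averaged 23685, 17205 and 10859 on them and 2781 to 6573 on the others. The beta-actin 3' to 5' ratio, which rises as amplified RNA shortens, came to 104, 165 and 100 on those arrays against 5.27 to 68.6 on the others. The Gapdh ratio came to 9.88, 17.3 and 34.5 against 4.92 to 24.5, so by it only TA 5 stood apart. Abcg2, the transporter behind the dye export, averaged 650 ± 322 over the EOM arrays and 2668 ± 728 over the TA arrays (SD, n = 6), lower in EOM by a log2 difference of -2.23 ± 0.42 (SE, adjusted p = 0.00206). Of the satellite cell markers, Pax7 reached at most 11.0 on EOM arrays and lay between 19.8 and 108 on TA arrays, under the level filter, and 0 of the 4 markers tested passed.

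None of the counted fibrillar collagen chains passed the threshold on the probe set that represents its gene. Among them, Col11a1, Col11a2 and Col5a1 had the estimates farthest from 0. With each gene represented by its tested probe set of highest mean log2 signal, 9 of the 10 genes were tested and 0 passed. Of all 13067 tested genes 10.9% passed, 4.05% higher and 6.81% lower in EOM. At an unadjusted p under 0.05, 4 of the 9 genes lay past, against 23.6% of all tested genes: Col5a1 above 0, and Col5a3, Col11a1 and Col11a2 below. The median difference over the 9 genes was -0.23, beside -0.04 over all tested genes. The signals of the groups did not overlap for 1 of the 9, Col5a1, against 7.13% of all tested genes. In a limma fit on the mean of each gene's probe sets, adjusted over genes, Col5a1 (1.27, adjusted p = 0.00725) and Col11a1 (-1.67, adjusted p = 0.0113) passed. Over probe sets, 18 of the 20 were tested, and 1 was higher in EOM and 2 were lower. Of all tested probe sets 8.23% passed, 3.2% higher and 5.03% lower, and 5.43% had no overlap between the groups.

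**Figure D1:**
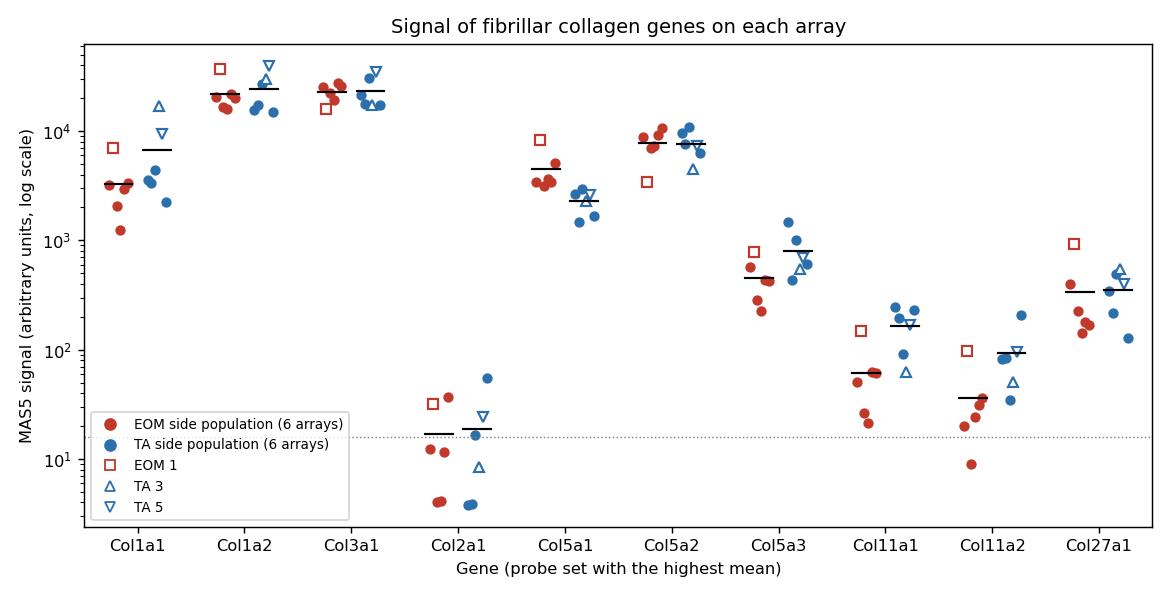
Signal (MAS5, log axis) of the representing probe set of each counted fibrillar collagen gene on the 6 EOM and 6 TA arrays. Each point is an array and each bar a group mean, with a dotted line at 16, the constant added before the log. Open points are EOM 1, TA 3 and TA 5. The groups overlap for every gene except Col5a1, whose EOM arrays lie from 3146 to 8299 and TA arrays from 1480 to 2948.

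Collagen I, the main load-bearing fibril former, is built from Col1a1 and Col1a2. Col1a1 had signals of 1243, 3088 and 6967 in EOM (lowest, median and highest) and of 2242.5, 3951 and 17007 in TA. The groups overlapped over most of their range, and the highest TA value was on TA 3 and the highest EOM value on EOM 1. The means were 3298 ± 1967 and 6660 ± 5662 (SD, n = 6), and the difference of -0.84 ± 0.46 (SE, adjusted p = 0.349) had a 95% interval from -1.81 to 0.14. A second probe set of the gene, 1423669_at, gave -0.10 ± 0.46 (adjusted p = 0.952).

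The probe sets of Col1a2, the other chain of collagen I, differed in result. The bright one, 1450857_a_at, had signals of 15776, 20393 and 37223 in EOM and 15100.5, 22075 and 39484 in TA, with a difference of -0.09 ± 0.31 (adjusted p = 0.931, 95% interval -0.75 to 0.57). These ranges covered each other almost fully. The probe set 1423110_at was lower in EOM, at 888, 3514 and 6907 against 6842.5, 9291 and 10790 in TA. Only the highest EOM array, EOM 6, reached the lowest TA array. The difference was -1.55 ± 0.38 (adjusted p = 0.0140), a fold of 2.92 lower, and it passed without each array in turn (adjusted p 0.00215 to 0.0395) but not with arrays centred on their medians (adjusted p = 0.120). A dim probe set, 1446326_at, gave -0.06 ± 0.38 (adjusted p = 0.967). Col1a2 thus had 1 probe set past the threshold and 2 near 0.

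Collagen III is a trimer of the single chain Col3a1 and mixes with collagen I in the fibrils of soft tissue. Its signals were 15824, 23698 and 27532 in EOM and 17284.5, 19475 and 34663 in TA. The lowest EOM value was on EOM 1, and the groups overlapped throughout. The difference was 0.00 ± 0.28 (adjusted p = 0.997), with a 95% interval from -0.58 to 0.58. The dimmer probe set 1427884_at gave -0.49 ± 0.44 (adjusted p = 0.629). Col2a1, the collagen II chain that defines cartilage, had signals of at most 36.6 in EOM and 55.0 in TA and lay under the level filter, so it was not tested. Its group means were 16.7 ± 14.0 and 18.6 ± 19.5 (SD, n = 6).

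**Figure D2:**
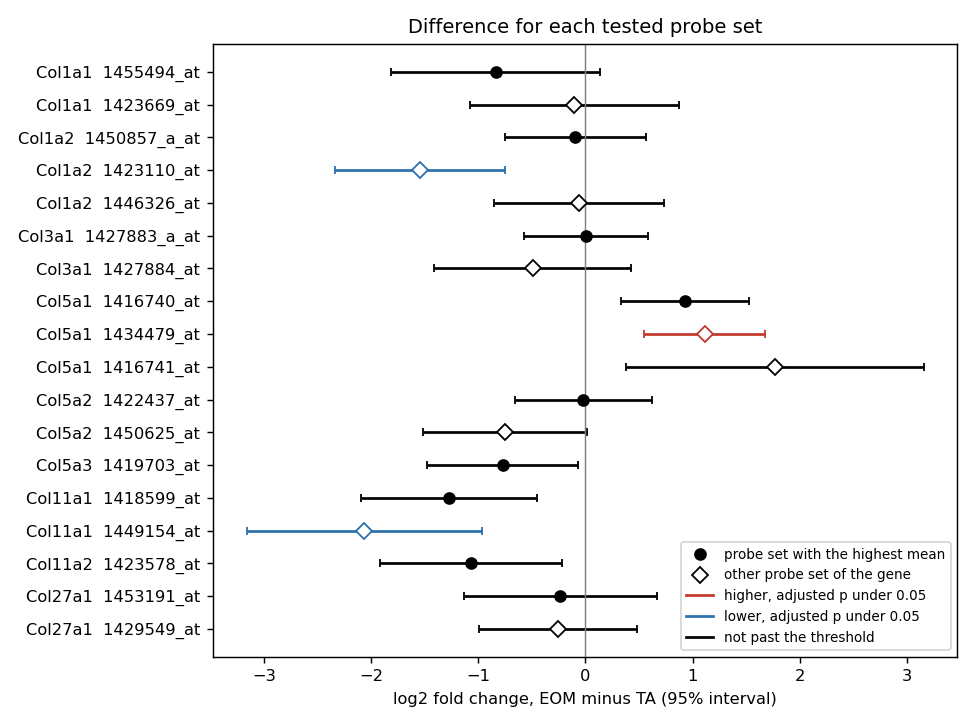
Difference (EOM minus TA, log2 scale) of each of the 18 tested probe sets with its 95% interval; filled circles are the probe sets of highest mean, open diamonds the others, and colour marks an adjusted p under 0.05. Col5a1 1434479_at lies above 0 in colour, and Col1a2 1423110_at and Col11a1 1449154_at lie below.

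Collagen V nucleates collagen I fibrils through its Col5a1 chain, which most collagen V molecules carry with Col5a2, and in some tissues with Col5a3. Upstream sequence is shown for Col5a1 and Col5a3, whose estimates lay on opposite sides of 0, and for Col11a1, whose estimate lay farthest below 0. It comes from RefSeq (GRCm38.p6), 7 of the 10 genes had an entry, and each window ends just before the outermost annotated start of the gene. Col5a1 is at chr2:27886175-27886380 on the plus strand, Col5a3 at chr9:20815118-20815317 on the minus strand and Col11a1 at chr3:114030290-114030478 on the plus strand, each written 5' to 3' along its gene. Capitals mark the letters CCAAT and GGGCGG on either strand (ATTGG and CCGCCC on the opposite one).
Col5a1: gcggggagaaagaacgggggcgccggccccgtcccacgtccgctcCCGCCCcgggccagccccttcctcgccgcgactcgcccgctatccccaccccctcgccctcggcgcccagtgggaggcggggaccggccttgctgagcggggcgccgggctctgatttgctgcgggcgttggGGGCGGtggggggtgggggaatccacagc
Col5a3: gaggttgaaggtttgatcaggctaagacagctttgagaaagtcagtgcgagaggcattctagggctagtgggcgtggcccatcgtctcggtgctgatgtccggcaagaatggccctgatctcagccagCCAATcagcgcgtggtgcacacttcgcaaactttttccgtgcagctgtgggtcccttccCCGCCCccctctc
Col11a1: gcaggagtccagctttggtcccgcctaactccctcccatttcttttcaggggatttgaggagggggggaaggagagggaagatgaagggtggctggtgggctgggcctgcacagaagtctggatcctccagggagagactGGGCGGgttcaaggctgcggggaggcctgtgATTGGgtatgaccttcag
The 206 bases of Col5a1 held GGGCGG at 2 places and CCAAT at 0, while the 200 bases of Col5a3 and the 189 bases of Col11a1 held each at 1 place. Over 32851 windows of the table cut to the length of the Col5a1 window, 25.8% held GGGCGG and 29.3% CCAAT. For Col5a3 these shares were 24.6% and 28.4%, and for Col11a1 22.6% and 26.5%. A match describes these letters and not a bound site.

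Col5a1 was the only member whose representing probe set did not overlap between the muscles, as held for 7.13% of all tested genes. Its other probe sets overlapped. On 1416740_at the EOM arrays gave 3146, 3542 and 8299 and the TA arrays 1480, 2451 and 2948. Every EOM array lay above every TA array. The means were 4512 ± 1987 and 2279 ± 584 (SD, n = 6), and the difference of 0.93 ± 0.28 (95% interval 0.33 to 1.53) did not pass (adjusted p = 0.0513). The highest EOM value, 8299, was on EOM 1, and without that array the difference was smaller, 0.74, and passed (adjusted p = 0.0299). It also passed with arrays centred on their medians (1.02, adjusted p = 0.0362).

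A further Col5a1 probe set, 1434479_at, was higher in EOM. It had signals of 1772, 3035 and 4155 in EOM and 848.5, 1305 and 1946.5 in TA. The lowest EOM array here was EOM 1, the only one within the TA range. The means were 3065 ± 798 and 1416 ± 419 (SD, n = 6), a difference of 1.11 ± 0.27 (adjusted p = 0.0128) or a fold of 2.16. It passed without each array in turn (adjusted p 0.000631 to 0.0397), and it did not pass with arrays centred on their medians (adjusted p = 0.106). The dimmest, 1416741_at, gave 34.2, 402 and 455 in EOM against 8.2, 86.5 and 340 in TA, with EOM 1 far below the other 5 EOM arrays. Its difference was 1.77 ± 0.66 (adjusted p = 0.122), and it was 2.28 without EOM 1 (adjusted p = 0.00606) and 2.17 without TA 0 (adjusted p = 0.0474). All 3 Col5a1 estimates thus lay above 0.

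Col5a2, the usual partner of Col5a1, had signals of 3431, 8044 and 10675 in EOM and 4480.5, 7440 and 10845 in TA. The ranges coincided, and the difference was -0.02 ± 0.30 (adjusted p = 0.987, 95% interval -0.66 to 0.62). Its other probe set, 1450625_at, gave -0.75 ± 0.36 (adjusted p = 0.268). Col5a3, the chain of restricted distribution, had signals of 225, 431 and 779 in EOM and 435, 645 and 1471 in TA. Its highest EOM value was on EOM 1, and the other 5 EOM arrays reached at most 567. The difference was -0.77 ± 0.33 (adjusted p = 0.196), and -0.95 without EOM 1 (adjusted p = 0.0381). A second Col5a3 probe set, 1425984_at, lay under the filter, with means of 23.6 and 32.4.

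Collagen XI, the partner of collagen II in cartilage that also occurs at low level in tendon, had lower values in EOM. The Col11a1 probe set 1449154_at gave 5.0, 16.5 and 76.9 in EOM and 26.4, 195 and 358 in TA. Of the TA arrays only TA 2 and TA 3 came within the EOM range. The difference was -2.06 ± 0.52 (adjusted p = 0.0179). Since the EOM signals lie about at the added constant, its size depends on that constant, at -2.77 with a constant of 1 (adjusted p = 0.0222) and -1.31 with 64 (adjusted p = 0.0198). The call was lost without EOM 2 (adjusted p = 0.0511), TA 1 (adjusted p = 0.0545) or TA 6 (adjusted p = 0.0510). It was also lost with quantile normalization (adjusted p = 0.0518) and median centring (adjusted p = 0.0808).

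The representing Col11a1 probe set, 1418599_at, gave 21.1, 55.9 and 147 in EOM and 61.8, 181 and 245 in TA. The highest EOM value was on EOM 1, and the lowest TA value on TA 3. Its difference of -1.28 ± 0.39 (95% interval -2.10 to -0.46) did not pass (adjusted p = 0.0516). It passed without EOM 1 (-1.53, adjusted p = 0.00430), TA 2 (-1.40, adjusted p = 0.0496) or TA 3 (-1.50, adjusted p = 0.0179). Col11a2, another collagen XI chain, gave 8.9, 27.8 and 96.8 in EOM and 34.8, 83.3 and 209.5 in TA. EOM 1 was again the highest EOM array, above 5 of the 6 TA arrays. The difference was -1.07 ± 0.40 (adjusted p = 0.129), and -1.32 without EOM 1 (adjusted p = 0.0159).

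Without EOM 1, then, Col5a1 was called higher and Col5a3, Col11a1 and Col11a2 lower, where 10.0% of all tested genes were called higher and 10.5% lower. Without EOM 1, TA 3 and TA 5 the calls fell on those genes too, with differences of 0.81 for Col5a1 (adjusted p = 0.0163), -1.07 for Col5a3 (adjusted p = 0.0267), -1.76 for Col11a1 (adjusted p = 0.000699) and -1.41 for Col11a2 (adjusted p = 0.0128). The background then was 10.6% higher and 11.2% lower. The choice to leave out these 3 arrays was made after the data were seen.

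Col27a1, the chain of collagen XXVII, which is known from cartilage and from developing tissues, had signals of 143, 203 and 924 in EOM and 129, 371 and 544 in TA. Its highest value of all was on EOM 1, and the ranges overlapped. The difference was -0.23 ± 0.43 (adjusted p = 0.857), and -0.26 ± 0.35 on 1429549_at (adjusted p = 0.788). Col24a1, the chain of the fibrillar collagen XXIV, was not on the list of members and is not counted among the 10 genes. It had signals of 0.3, 9.85 and 38.1 in EOM and 30.2, 48.0 and 117 in TA, a difference of -1.26 ± 0.42 (adjusted p = 0.0782).

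Whether chains of a shared molecule or fibril moved together was tested in 5 pairs, as the difference in log2(signal + 16) between the chains within each array. The offset between chains depends on their probes and has no meaning here, so the groups alone were compared, by a two-sided exact permutation test over all 924 splits into 6 and 6. Col5a1 minus Col5a3 ran from 2.56 to 3.93 in EOM and from 0.85 to 2.05 in TA. No EOM array overlapped a TA array, and the shift was 1.70, with p = 0.00216, the smallest these splits allow (0.0108 adjusted over the 5 pairs, exact permutation). This pair passed without each array in turn (adjusted exact p 0.0108 to 0.0216).

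Col5a1 also shifted against Col5a2, by 0.95 (exact permutation p = 0.0216, adjusted 0.0469), with EOM from -1.43 to 1.27 and TA from -2.34 to -0.95. The highest EOM value was on EOM 1, and without that array the shift was 0.54 and did not pass (adjusted exact p = 0.0568). Col1a1 shifted against Col1a2 by -0.74 (exact permutation p = 0.0281, adjusted 0.0469). With the mean of all probe sets of each gene that shift turned to 0.10 (adjusted exact p = 0.779), so its direction rests on the probe sets taken. The call on Col5a1 against Col5a2 was lost in 9 of the 12 fits that left out 1 array (EOM 1, 2, 3 or 6, or TA 0, 1, 2, 5 or 6), and that on Col1a1 against Col1a2 also in 9 (EOM 0, 2, 3, 5 or 6, or TA 0, 1, 3 or 5). Col1a1 minus Col3a1 shifted by -0.84 (adjusted exact p = 0.241), and passed without EOM 1 (-1.19, adjusted exact p = 0.0325). For the chains of collagen XI the shift was -0.21 (adjusted exact p = 0.431).

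**Figure D3:**
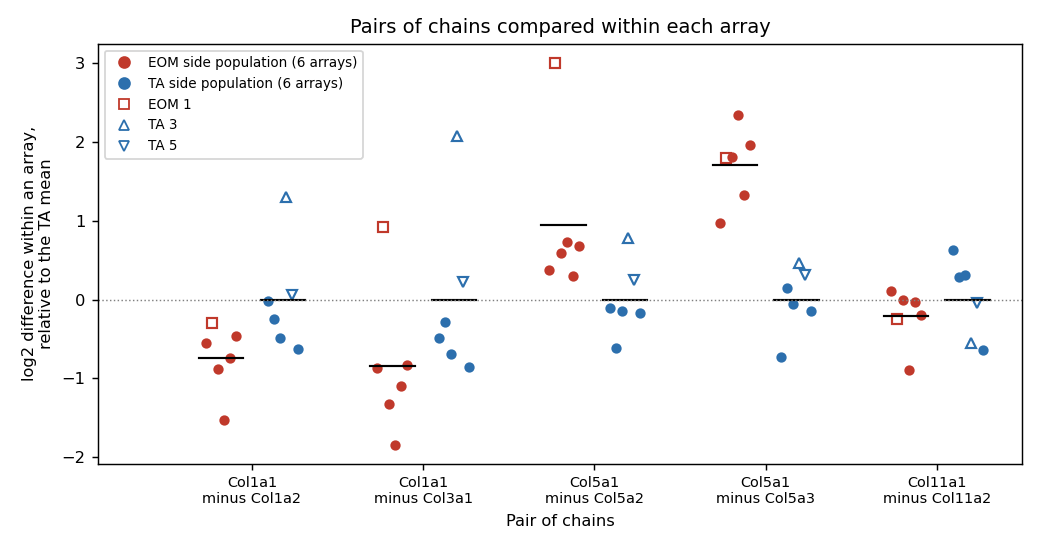
Difference in log2(signal + 16) between the chains of each of 5 pairs within an array, shown relative to the TA mean of the pair; each point is an array, bars are group means, and EOM and TA stand side by side, with open points for EOM 1, TA 3 and TA 5. The points of Col5a1 minus Col5a3 form separate ranges for EOM and TA, 1.70 apart on average, and the other pairs overlap.

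Probe sets of 1 gene did not keep a fixed ratio across arrays. The highest of each ratio given here was on EOM 1, TA 3 or TA 5, which stood apart in median signal. Only for Col5a1 did all 3 of them exceed the other 9 arrays. For Col5a1, the ratio of 1416740_at to 1416741_at reached 243, 275 and 316 on EOM 1, TA 3 and TA 5, and stayed between 7.78 and 34.6 on the other 9. For Col1a2, the ratio of 1450857_a_at to 1423110_at was 41.9 on EOM 1, 2.92 to 8.25 on the other EOM arrays and 1.81 to 3.74 on the TA arrays. The Col1a2 ratio thus separated the groups except for EOM 6 and TA 5. For Col1a1, the ratio of 1455494_at to 1423669_at was 25.9, 64.2 and 21.5 on the 3 arrays and ranged from 1.45 to 36.3 on the others. For Col3a1 the ratio of its probe sets was 68.2 on EOM 1 and 8.62 to 29.8 on the other arrays, and for Col5a2 it ran from 7.03 to 14.0 in EOM and from 4.39 to 8.06 in TA. These 3 arrays also had the highest beta-actin 3' to 5' ratios, and a fit was made with the mean of the beta-actin and Gapdh ratios (log2) as a covariate. In it Col5a1 was higher by 1.06 (adjusted p = 0.0122) and Col11a1 lower by a difference of -1.30 (adjusted p = 0.0494), while Col1a1 was at -0.44 (adjusted p = 0.430) and Col1a2 1423110_at at -1.57 (adjusted p = 0.0132).

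**Figure D4:**
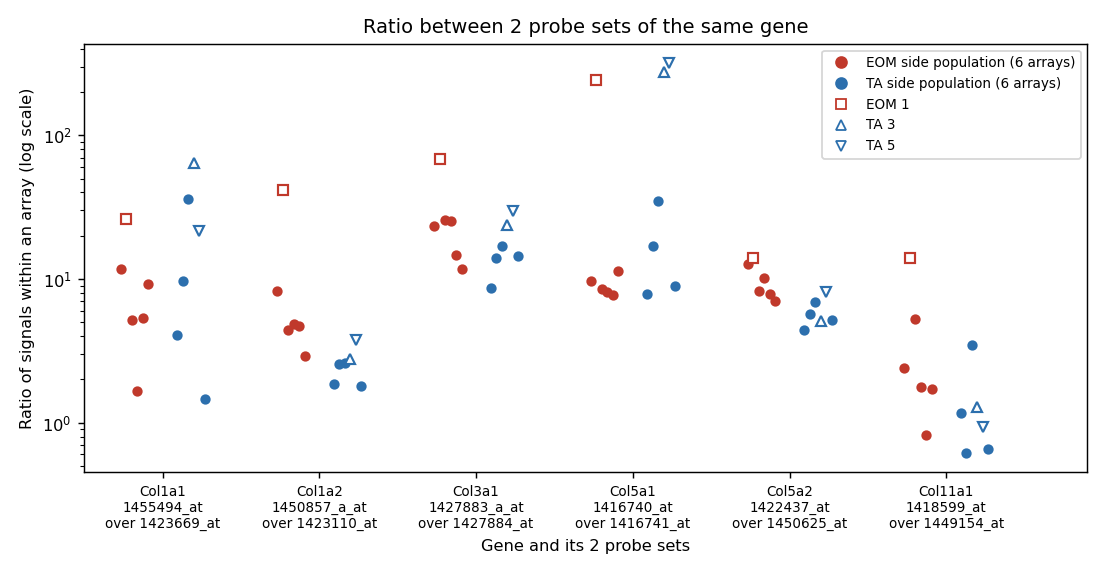
Ratio of signals (log axis) of a pair of probe sets of the same gene within each array, for 6 genes; each point is an array, EOM and TA side by side, with open points for EOM 1, TA 3 and TA 5. These 3 arrays hold the highest Col5a1 ratios, 243 to 316, and EOM 1 the highest EOM ratio of every gene shown.

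Around the chains, genes of collagen assembly and of the fibril surface were examined in 7 lists, 58 of whose 70 genes were tested. Of these, 9 were higher in EOM, 4 were lower and 45 did not pass, with a median difference of 0.29. The shares were 15.5% higher and 6.90% lower, beside 4.05% and 6.81% of all tested genes, so the share of lower genes was that of the background. Among 19 enzymes and chaperones that fold and modify procollagen, 1 was higher and 1 lower, with a median of 0.08. P3h3, a prolyl 3-hydroxylase family member, rose from 344 ± 70.2 in TA to 810 ± 188 in EOM (SD, n = 6), a difference of 1.19 ± 0.23 (adjusted p = 0.00276). P3h2, a prolyl 3-hydroxylase, fell from 239 ± 73.2 to 26.3 ± 14.4 (SD, n = 6), a difference of -2.62 ± 0.30 (adjusted p = 1.82e-05). Neither gene overlapped between the groups.

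Of 4 tested genes for propeptide removal, 2 were higher in EOM and 0 lower, with a median of 0.69. Pcolce2, an enhancer of C-propeptide cleavage, had 1130.5, 4939 and 7575 in EOM and 615, 877 and 1302 in TA, a difference of 2.24 ± 0.38 (adjusted p = 0.000699). Bmp1, the C-proteinase that cuts procollagens I to III and also trims collagens V and XI, had 802, 2488 and 2820 against 540, 1020 and 1162, a difference of 1.16 ± 0.31 (adjusted p = 0.0245). In both genes a single EOM array lay within the TA range. Of 4 tested crosslinking genes, 1 was higher and 0 lower, with a median of 0.40. It was Loxl1, a lysyl oxidase homologue that acts mainly on elastin, with 2022 ± 604 in EOM and 679 ± 304 in TA (SD, n = 6) and a difference of 1.63 ± 0.35 (adjusted p = 0.00511).

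Molecules that sit on the fibril surface had 4 members higher and 1 lower of 10 tested, with a median of 0.69. Col14a1, a fibril-associated collagen, had a difference of 2.14 ± 0.47 (adjusted p = 0.00623), and 2.10 on its other probe set. Fn1, the fibronectin on which collagen fibrils assemble, had 1.48 ± 0.36 (adjusted p = 0.0130), but 0.71 on a dim probe set that did not pass (adjusted p = 0.367). The remaining 2 higher genes were Tnxb, a tenascin (1.26 ± 0.32, adjusted p = 0.0198), and Bgn, the proteoglycan biglycan (0.85 ± 0.24, adjusted p = 0.0320). Fmod, the tendon proteoglycan fibromodulin, fell from 42452 ± 29387 in TA to 4581 ± 3421 in EOM (SD, n = 6), with no overlap, a difference of -3.41 ± 0.55 (adjusted p = 0.000429), and its 5 other probe sets ran from -3.64 to -4.67.

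Of 7 tested collagen receptors and uptake genes, 0 were higher and 1 was lower, with a median of 0.86. The lower one was Itga1, the alpha chain of a collagen-binding integrin, at -1.32 ± 0.35 (adjusted p = 0.0252). None of 3 tested collagenases passed (median 0.65). Of 11 tested transcription factors with known roles at these genes, Cebpb, a bZIP factor, was higher at 0.93 ± 0.27 (adjusted p = 0.0397). Mkx, a homeobox factor of tendon, was lower at -1.47 ± 0.40 (adjusted p = 0.0290), and the median of the list was -0.27. Fits that left out 1 array at a time are given for representing probe sets only. In them the highest adjusted p was 0.0671 for Bmp1, 0.0732 for Itga1, 0.0756 for Mkx and 0.109 for Cebpb. Each of these calls was thus lost in some fits, while those of P3h2, P3h3, Pcolce2, Loxl1, Fmod, Col14a1 and Fn1 passed in all 12. With arrays centred on their medians, P3h2, Pcolce2 and Fmod passed and the other 8 of these genes did not. These statements cover the genes named by rule, up to 3 per list, and leave out Tnxb and Bgn. Over all genes of the lists, 4 were higher and 2 lower with that centring, so some genes outside these statements passed too.

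**Figure D5:**
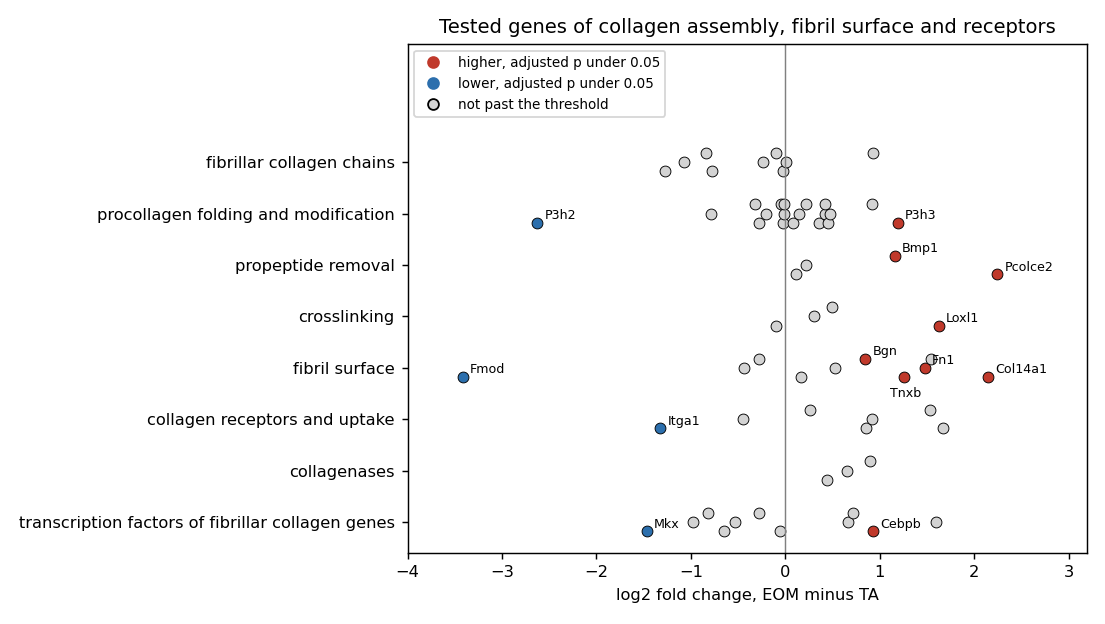
Difference (EOM minus TA, log2 scale) of each tested gene of the fibrillar collagen chains and the 7 lists of assembly, surface, receptor, collagenase and transcription factor genes; coloured points passed the threshold and are named. The collagen chains lie between -1.28 and 0.93 with none coloured, and Fmod and P3h2 lie farthest to the left.

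Fibroblasts and tendon cells make fibrillar collagens. Their markers differed between the groups in opposite directions, and the part of these cells in the collagen values was not tested. The marker counts stand beside 4.05% of all tested genes higher in EOM and 6.81% lower. In the short cartilage, bone cell and myofibre lists, 1 call says little beside these shares. Of 13 fibroblast markers 8 were higher in EOM and 0 lower, and their summed signal was 140117 to 321056 on EOM arrays and 79926 to 163328 on TA arrays. Gsn (-0.14, adjusted p = 0.926) and Dcn (0.16, adjusted p = 0.821), the brightest of these markers, weigh most in that sum and did not pass. Of 7 tendon cell markers 6 were lower and 0 higher in EOM, and their sum was 2573 to 12935 in EOM and 31486 to 109602 in TA, without overlap. Fmod and Mkx are also on the tendon list. Among 13 cartilage markers, 5 were tested and 1, Comp, which tendon also makes, was lower, with sums of 878 to 3051 against 3753 to 8027. Of 4 tested bone cell markers, Alpl alone was lower, with sums of 85.9 to 487 against 231 to 627. The cartilage markers that fell under the filter, such as Matn1, Col9a2 and Col10a1, reached at most 105 on any array.

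Many markers of vessel and blood cells were lower in EOM as well, and most of those of myofibres and satellite cells did not pass. Of the tested endothelial markers 10 of 12 were lower, with sums of 1559 to 2918 against 11595 to 38929, and of the pericyte and smooth muscle markers 8 of 10, with sums of 3343 to 5930 against 15401 to 31588. Of the leukocyte markers 7 of 8 were lower, with sums of 404 to 4320 against 4663 to 12097. Of 7 tested myofibre markers 1 was lower, with sums of 156 to 934 against 324.5 to 1250. The satellite cell sums were 82.4 to 458 against 154 to 443. The part of these cells in the Col5a1 and Col11a1 values was not tested.

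The genes most alike in profile to 2 of the chains were found by the mean absolute difference between profiles over the 12 arrays, each centred on its own mean, among 13058 other genes. For Col3a1, the chain of highest mean signal, they were Unkl (0.17), Gkap1 (0.17) and Golga2 (0.18), where the median over all genes was 0.56. Since Col3a1 itself departed from its mean by only 0.30 on average, these are genes that were likewise even across the arrays. For Col11a1, the chain with the difference farthest from 0, they were Sema6a (0.29), Mertk (0.30) and Rassf3 (0.31), with a median over all genes of 0.93 and a spread of Col11a1 itself of 0.82. Their differences were -1.73, -1.18 and -1.55, on the side of Col11a1, as the choice by likeness of profile favours, and they are given as a description.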

How the data were processed

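Total RNA of 6 EOM and 6 TA side population preparations was amplified in 2 cycles, biotin labelled and hybridized, 1 array each, per the labels' protocols. The deposited intensity values are MAS5 signals, per the labels, and on every array their mean trimmed by 2% at each end was 150, a scaling done by the authors. Array numbers come from the sample titles, and 0 value columns were left unused. Control probe sets (64) were removed, and gene symbols came from the platform's table (34945 probe sets had 1 symbol, 932 several and 9160 none; only the first kind was named). Probe sets in the lowest 40% by mean log2(signal + 16) were not tested. The fit used limma 3.58.1 in R 4.3.3 (lmFit, eBayes with trend, two-sided, Benjamini-Hochberg at 0.05) and was tested on simulated data. The number of arrays limits the precision. A gene was represented by its tested probe set of highest mean log2 value, which gave 13067 genes. Named genes were all members with every probe set and up to 3 called genes per assembly list with the largest change. Also named by rule were the 3 genes most alike in profile to the chain of highest signal and to that of largest change. Col24a1, Abcg2, Tnxb, Bgn, Mmp8, Mmp13 and the markers named were chosen outside this rule. Members, lists and tests were chosen with earlier results of these data known, and nothing here is independent support for them. Promoter windows come from RefSeq (GRCm38.p6), and no build is given for the array itself. Genes without a named probe set were not analysed here. Alternatives changed the constant, scaling, filter, variance trend, array weights, replicate block, RNA length covariate, probe set rule and arrays used.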

Additional observations from a re-analysis of the deposited data

Results flagged for a closer look

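In each group of 6 arrays the gap between the highest or lowest array and its neighbour was set against the whole range of the group on the log2 scale, for all 20 probe sets of the fibrillar collagens. Of 40 groups examined, 2 had an array apart from the others by this measure, where chance gives about 1 in 20, and both arrays were EOM 1. The signal of Col1a2 1450857_a_at on EOM 1 was 37223, with a gap that took 0.630 of the range of the EOM arrays. The signal of Col5a1 1416741_at on EOM 1 was 34.2, below the other EOM arrays, with a gap of 0.889 of the range.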

How the results depend on the processing

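Of all tested probe sets 2225 passed, 1445 with median centring, 5488 with array weights, 4675 without EOM 1, TA 3 and TA 5, and 1579 to 4361 when 1 array was left out, the most without EOM 1. The count of fibrillar collagen genes higher in EOM went from 0 to 1 with median centring, the filter on 60%, array weights, the 3' to 5' covariate, the mean of probe sets, and without the 3 arrays. The count lower in EOM went from 0 to 1 with the filter on 60%, the replicate block, the covariate, the mean of probe sets and the filter on linear means, and to 3 with array weights and without the 3 arrays. Leaving out 1 array gave 0 to 1 higher and 0 to 3 lower. Of the assembly lists, 9 genes were higher and 4 lower. These counts were 4 and 2 with median centring and 23 and 7 with array weights. There were 21 higher without the 3 arrays and 2 lower with quantile normalization, and 5 to 21 higher and 2 to 5 lower without 1 array. The causes were not tested.

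Estimates of genes and probe sets that changed sign had not passed: Col1a2 was 0.11 with the covariate and 0.048 without the 3 arrays, Col3a1 -0.24 with the mean of probe sets, Col5a2 0.074 with median centring and 0.013 without the 3 arrays, Col27a1 0.060 with the covariate, and Col1a2 1446326_at 0.079 with quantile normalization and 0.034 with median centring. Without 1 array they ran from -0.26 to 0.068 for Col1a2, -0.069 to 0.13 for Col3a1, -0.16 to 0.20 for Col5a2, -0.45 to 0.25 for Col1a1 1423669_at and -0.30 to 0.12 for Col1a2 1446326_at. Col1a1 minus Col1a2 was -0.86 with quantile normalization, -0.49 without the 3 arrays, both past no threshold, and turned to 0.10 with the mean of probe sets. Col5a1 minus Col5a2 was 0.95 with quantile normalization and did not pass. Without 1 array the shifts ran from -0.87 to -0.48, -1.19 to -0.42, 0.54 to 1.11, 1.56 to 1.85 and -0.34 to -0.07 for the 5 pairs in the order given in the plot of chain pairs.

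Same-numbered arrays of EOM and TA did not deviate together (correlations from -0.32 to 0.16), so the numbers were not taken as pairs. With the replicate block the 5 pair shifts kept their values (-0.74 for Col1a1 minus Col1a2, 0.95 for Col5a1 minus Col5a2, 1.70 for Col5a1 minus Col5a3), and 0 of the 5 passed the exact sign-flip test over 6 differences (smallest p adjusted over the pairs 0.156). That test has few possible outcomes over 6 differences, so 1 pair alone could not pass after adjustment over the 5. No conclusion is drawn from it. The median difference (EOM minus TA) over all tested probe sets was -0.03 as deposited, 0.03 with quantile normalization and 0.07 with median centring. The table holds no detection calls, so the dim signals of Col2a1, Col11a1, Col11a2 and Col24a1 could not be set against background.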
